A study of Canis lupus familiaris with 4 samples.

Results

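The B cell receptor signalling genes CD79A, CD79B, CD22, MS4A1, LYN, SYK, BLNK and PLCG2 were described through the methylated DNA regions that MethylCap-seq placed at them in a pair of canine lymphoma cell lines. The 8 genes were given as a named set, and their regions are the rows of each region table whose gene is one of them. They numbered 45 of 123421 regions in CLBL-1 8.0 and 31 of 82247 regions in CLBL-1, and 6 of the 8 genes were among the 21789 genes named in either table.

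CLBL-1 8.0 is a derivative of CLBL-1 that resists doxorubicin and was kept in medium with 8 µM doxorubicin hydrochloride, and CLBL-1 is the line without chemoresistance, kept in the same serum-containing medium with no doxorubicin named. Both are canine diffuse large B-cell lymphoma cells, with lymph node as the labelled tissue, and each is a single line. Each line gave 2 libraries of genomic DNA, a low salt and a high salt eluate of DNA bound by a methyl-binding domain protein, which the labels describe as fractions of different methylation level and which are not replicates. Each line has 1 region table, so a line is represented by a single list, no difference has a replicate check and no test between the lines was possible. CLBL-1 8.0 was kept in the drug, so resistance and drug exposure cannot be told apart. DNA capture cannot check B cell identity, since the tables hold no expression.

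The B cell receptor is an immunoglobulin that signals through the paired chains CD79A and CD79B, whose tails carry tyrosine motifs. LYN, a SRC family kinase, phosphorylates these motifs, SYK binds to them and is activated, and the adaptor BLNK brings in PLCG2, the phospholipase that releases calcium and activates protein kinase C. CD22 is an inhibitory co-receptor that LYN also phosphorylates, and MS4A1 encodes CD20, the membrane protein targeted by anti-CD20 antibodies. Methylation at a promoter in a CpG-rich sequence often goes with a silent gene, whereas methylation within gene bodies is common in transcribed genes. A CpG island is a stretch rich in CpG dinucleotides, and its shores are the flanks.

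By number, captured regions lay mostly in the bodies of SYK and PLCG2, while the receptor chains and the membrane proteins had few regions or none. These numbers take no account of gene length. From first to last listed region, PLCG2 spanned 170 kb, SYK 60.0 kb, CD22 29.4 kb and CD79B 4.6 kb. PLCG2 had 26 regions in CLBL-1 8.0 and 16 in CLBL-1, and SYK had 10 and 9. CD22 had 3 and 4, and CD79B had 2 in each line. LYN had 3 regions and MS4A1 had 1 in CLBL-1 8.0, and neither had any in CLBL-1. CD79A and BLNK were named in neither table. A gene without a listed region is not shown to be unmethylated, because read depth is unknown and the tables hold only regions that passed the authors' calling.

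**Figure D1:**
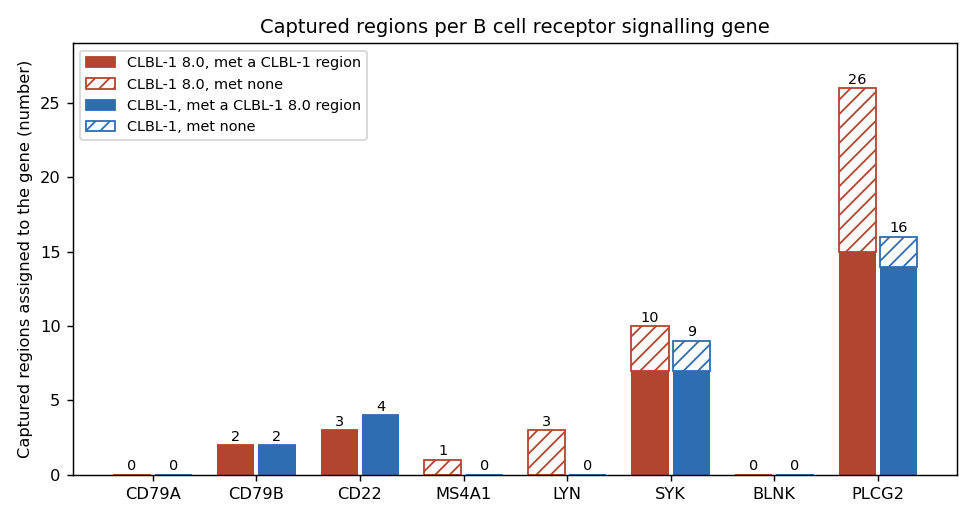
Number of captured regions assigned to each of the 8 genes in CLBL-1 8.0 (left bar) and CLBL-1 (right bar), with filled parts for regions sharing at least 1 bp with a region of the other list and hatched parts for regions that met none. PLCG2 has 26 and 16 regions, and the LYN and MS4A1 bars are hatched throughout.

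The counts for the set lay near those of all genes. A region was listed for 6 of the 8 in CLBL-1 8.0, where 76.3% of 17395 named protein-coding dog genes had one, and for 4 of the 8 in CLBL-1, where 63.0% had one. Both lists lacked 2 of the 8, and 22.6% of the 17395 named protein-coding genes. These names come from an annotation on another assembly than that of the regions, so a gene named differently there counts as lacking a region. Among the 6 listed genes, 4 (MS4A1, LYN, SYK and PLCG2) had more regions in CLBL-1 8.0, against 60.1% of the 21789 genes listed in either line. CD79B had equal numbers, as did 30.5% of listed genes, and CD22 had fewer, as did 9.41%. MS4A1, LYN and PLCG2 had at least 1.5 times as many regions in CLBL-1 8.0, against 51.6% of listed genes, which counts genes with none in CLBL-1. These shares lie near the background and are no result about the set.

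Regions with the authors' promoter flag were listed for 2 of the 8 genes in CLBL-1 8.0 (background 35.7%) and for the same 2, CD79B and SYK, in CLBL-1 (28.8%). No other member had one in either line. The sources used here do not give the window behind the flag. All 9817 CLBL-1 8.0 regions and all 7508 CLBL-1 regions listed up to 3000 bp before a start carried it, as did others outside that stretch. None of the 45 regions of CLBL-1 8.0 (Wilson 95% interval up to 7.87%) and none of the 31 of CLBL-1 (up to 11.0%) carried the enhancer flag, against 5.07% and 5.04% of the whole lists, so the intervals include the level of the lists. These intervals cover counting error only, and neighbouring regions are not independent.

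The receptor chain gene CD79B, on the minus strand of chromosome 9 with its start at 11844946 (CanFam3.1), had the same pair of regions in both lines. The upstream region ran from 11846976 to 11847541 in CLBL-1 8.0, with a fold of 4.73, and from 11846994 to 11847481 in CLBL-1, with a fold of 5.70. It carried the promoter flag, lay outside islands and shores, and its nearer edge was 2030 bp and 2048 bp before the start. The intronic region, at an island shore, ran from 11842946 to 11843530 with a fold of 6.28 in CLBL-1 8.0 and from 11842936 to 11843589 with a fold of 12.0 in CLBL-1. Its nearer edge lay 1416 bp and 1357 bp past the start, so the start itself was under neither region in either line. Folds are the authors' values and serve to describe or rank regions within 1 list: the intronic region stood at percentile 69.6 of folds in CLBL-1 8.0 and 84.0 in CLBL-1, ranks that lists of different length do not make comparable.

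The other receptor chain gene, CD79A, had no region of its own, but captured DNA lay close to where its neighbours place it. In the RefSeq annotation on UU_Cfam_GSD_1.0, used here only for names and neighbours, CD79A lies between the protein-coding genes ARHGEF1 and RPS19 on chromosome 1. From the start of ARHGEF1 (112410160) to that of RPS19 (112427445), a distance of 17.3 kb, each list held 2 regions. The first was assigned to the promoter of ARHGEF1, a guanine nucleotide exchange factor gene, at 112412418 to 112413385 with a fold of 9.80 in CLBL-1 8.0 and at 112412682 to 112413423 with a fold of 14.8 in CLBL-1. The second was assigned to an intron of RPS19, with folds of 8.72 and 11.7. The tables give each region 1 gene only and gene models on CanFam3.1 were not used here, so whether the first lies over CD79A was not tested.

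CD22 (minus strand, chromosome 1, start at 117285775) had regions over its coding exons far from its start, and these were shared. The coding region of highest fold in CLBL-1 8.0, at 117268765 to 117269171, had a fold of 6.32, and its counterpart in CLBL-1 had 6.60. The region at a shore, at 117265021 to 117265538 in CLBL-1 8.0, had a fold of 4.27 against 7.13 in CLBL-1. The third, 23232 bp or more past the start, had folds of 3.85 and 3.56. In the full lists CD22 was the only member with fewer assigned regions in CLBL-1 8.0. A CLBL-1 region 4422 bp upstream of CD22 (117290197 to 117291550, fold 9.03) met a pair of CLBL-1 8.0 regions, at 117290257 to 117290730 (fold 5.95) and 117291078 to 117291503 (fold 4.92), that were assigned to MAG, the neighbouring gene for a myelin glycoprotein. Counted by position within the span of its regions, CD22 had 5 regions in CLBL-1 8.0 and 4 in CLBL-1. Among assigned regions above the pooled median fold of 5.28, CD22 had 1 in CLBL-1 8.0, against 3 in CLBL-1, and CD79B had 1 and 2. With lists of equal length CD22 had 2 and 4, and CD79B had 2 in each.

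MS4A1 (plus strand, chromosome 21, start at 50722142) had a single region, in CLBL-1 8.0. It lay in the 5'UTR at 50723959 to 50724252, 1817 bp past the start, outside islands and shores. Its fold was 4.43, at percentile 37.5 of that list, and it was 293 bp long. The nearest CLBL-1 region of any gene was 20192 bp away. It carried no promoter flag.

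**Figure D2:**
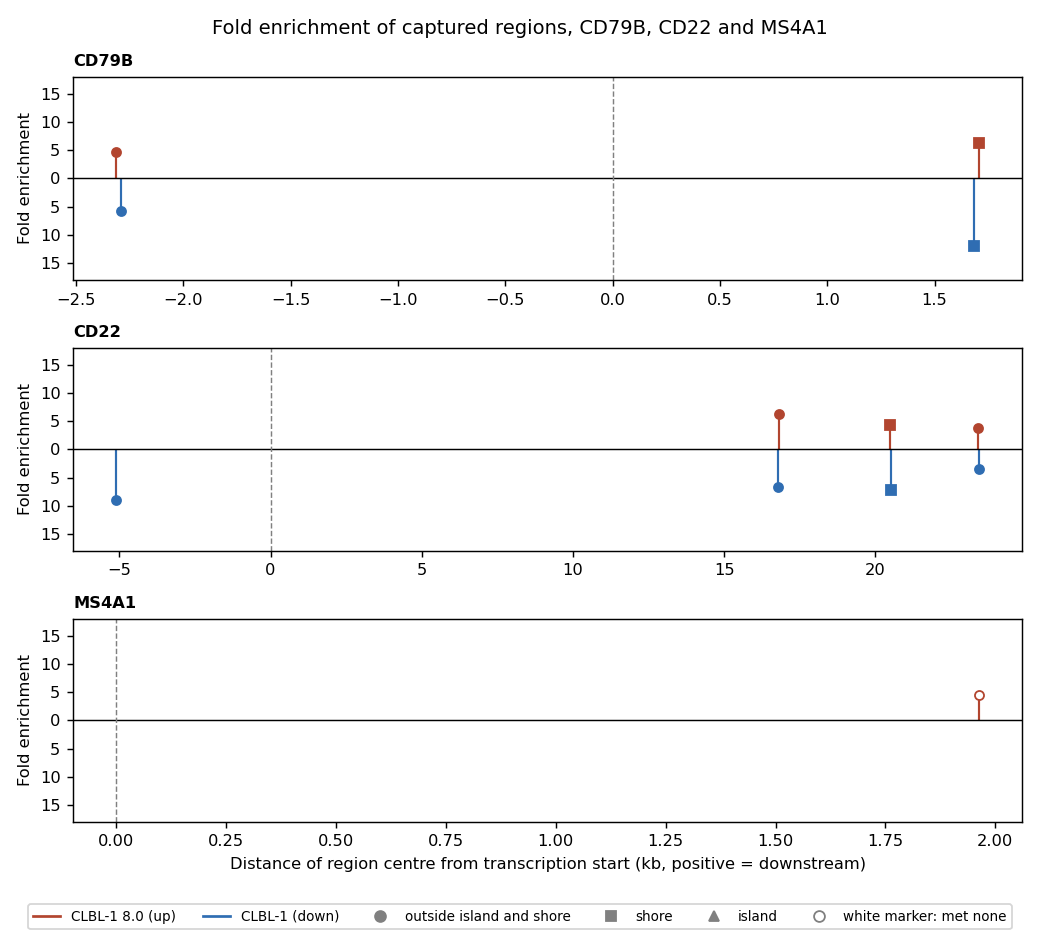
Fold enrichment (linear, authors' values) of regions assigned to CD79B, CD22 and MS4A1 against the distance of the region centre from the transcription start in kb, with CLBL-1 8.0 drawn upward and CLBL-1 downward. The CD22 region upstream of the start appears for CLBL-1 only because its CLBL-1 8.0 counterparts were assigned to MAG.

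The kinase gene LYN (plus strand, chromosome 29, start at 7367617) was listed in CLBL-1 8.0 alone, as were 20.3% of all listed genes. Its regions were intronic at 7419936 to 7420247 (fold 4.12) and at 7433629 to 7433894 (fold 4.75), and downstream at 7453829 to 7454269 (fold 6.01). All lay outside islands and shores and at least 52319 bp past the start, and the nearest CLBL-1 region was 58082 bp or more away from each. Their folds and that of MS4A1 are recurring values, each shared by between 1753 and 3393 regions of the CLBL-1 8.0 list. Within 500 kb of the start, and leaving LYN's own out, 30 regions were listed in CLBL-1 8.0 and 21 in CLBL-1, a ratio of 1.43 close to the 1.48 of the chromosome.

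SYK (minus strand, chromosome 1, start at 95955577) was the only member with a region of its own over its transcription start. In CLBL-1 8.0 it ran from 95954694 to 95955628, covering 883 bp past the start and 51 bp before it, with a fold of 9.49. In CLBL-1 it ran from 95954623 to 95955630, covering 954 bp and 53 bp, with a fold of 12.1. It was flagged as promoter, transcription start and island shore in both lines, and in each line it had the highest fold of the SYK regions. Another long shore region stood 4790 bp upstream in CLBL-1 8.0 and 4732 bp upstream in CLBL-1, with folds of 7.00 and 8.58.

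Across the SYK body the lists shared 5 further regions. The intronic shore region at 95938626 to 95939081 had a fold of 7.06 in CLBL-1 8.0, against 9.42 in CLBL-1. At SYK's other end, the 3'UTR region had 4.98 and 7.21, and the downstream region had 4.54 and 4.72, both at shores. A region at 95933950 to 95934423 had the higher fold in CLBL-1 8.0, 7.04 against 5.36, and was classed as intron in CLBL-1 8.0 and as coding in CLBL-1, although their starts differed by few bases. The lists parted in an intronic stretch of 3.3 kb, from 95908990 to 95912325. There CLBL-1 8.0 had regions with folds of 4.32 and 6.60 and CLBL-1 had regions with folds of 2.72 and 4.06. The 4 regions lay next to each other without overlap, the closest being 103 bp apart. A further CLBL-1 8.0 region, at 95943017 to 95943295 (fold 4.43), was 3879 bp from any CLBL-1 region.

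The adaptor gene BLNK was named in neither list. It lies between ZNF518A and DNTT on chromosome 28 in the RefSeq annotation. DNTT, the gene for the terminal transferase of antigen receptor rearrangement, was also named in neither list. From the start of ZNF518A (9572436) to the first listed region of TLL2 (9780272), the next named gene past DNTT with a region, a distance of 208 kb, 2 regions were listed for CLBL-1 8.0 and none for CLBL-1. Those 2 were assigned to introns of ZNF518A, at 9655888 to 9656288 (fold 7.60) and 9661980 to 9662262 (fold 4.75), 83452 bp and 89544 bp from its start. The end of this interval was set at a listed region, which bears on how few it holds. Whether the 2 regions lie over BLNK was not tested.

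PLCG2 (minus strand, chromosome 5, start at 70233459) had at least as many regions as 98.8% of listed genes in CLBL-1 8.0 and as 98.3% in CLBL-1. Its regions spread over 170 kb, from 70059975 to 70230063. In CLBL-1 all 16 were intronic, while in CLBL-1 8.0 the 26 were 22 intronic, 2 coding and 2 in the 5'UTR. Neither line had a region assigned to PLCG2 over the start or in the promoter. The nearest edge of its own regions was 3396 bp past the start in CLBL-1 8.0 and 5192 bp past it in CLBL-1. Counting regions of any assignment within 3000 bp of the start, CLBL-1 8.0 had 1, not assigned to PLCG2, and CLBL-1 had 0. Whether that region lies over the start was not tested.

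The shared PLCG2 regions included the highest folds of the whole set. The region of highest fold in CLBL-1 8.0 was the one farthest from the start, at 70059975 to 70060511, with a fold of 14.4 (percentile 98.5 of its list), and it had 13.2 in CLBL-1 (percentile 87.5). In CLBL-1 the highest fold was at the other end of the gene, 16.0 at 70227597 to 70228267, where CLBL-1 8.0 had 8.12. Both ends lay outside islands and shores. A cluster of shore regions stood between 123.4 and 138.2 kb past the start in CLBL-1 8.0, with 6 regions of folds 3.88 to 11.4, and between 124.1 and 138.1 kb in CLBL-1, with 5 regions of folds 3.82 to 14.0. Nearer the start, a CLBL-1 region of 1154 bp at 70206062 to 70207216 (fold 15.5) met a pair of CLBL-1 8.0 regions with folds of 11.1 and 9.75. The second of these, at 70206813 to 70207238, was the only region of any member flagged as a CpG island, whereas the CLBL-1 region over the same bases was flagged as shore.

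The PLCG2 regions of CLBL-1 8.0 that met no CLBL-1 region numbered 11, and those of CLBL-1 that met none numbered 2. The 11 included both 5'UTR regions (folds 2.75 and 3.55), both coding regions (4.48 and 3.50) and 7 intronic ones with folds up to 5.86. The 2 CLBL-1 regions, at 70114805 to 70115140 and 70142553 to 70142956, had folds of 5.58 and 5.28. Of 911 genes with at least 10 regions in CLBL-1, 19.2% had at least 1.5 times as many in CLBL-1 8.0, as PLCG2 did with a ratio of 1.63. A difference of 10 or more regions toward CLBL-1 8.0 was found in 1.65% of all listed genes. With the CLBL-1 8.0 list cut by fold to the length of the CLBL-1 list, which takes regions from CLBL-1 8.0 alone, PLCG2 had 18 regions in CLBL-1 8.0 and 16 in CLBL-1. When regions above the pooled median fold were counted, it had 12 and 11, and the whole lists had 55627 and 47206. The surroundings of PLCG2 differed more than PLCG2 itself. Within 500 kb of its start, leaving out its own regions, 104 were listed in CLBL-1 8.0 and 46 in CLBL-1, a ratio of 2.26, against 1.46 for chromosome 5. Around CD79B, whose own numbers were equal, there were 63 and 32, a ratio of 1.97 against 1.47 for chromosome 9. Around CD22, MS4A1 and SYK the ratios were 1.16, 1.35 and 1.39, against 1.37, 1.58 and 1.37 for their chromosomes. What part the surroundings have in the count of a member was not tested.

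**Figure D3:**
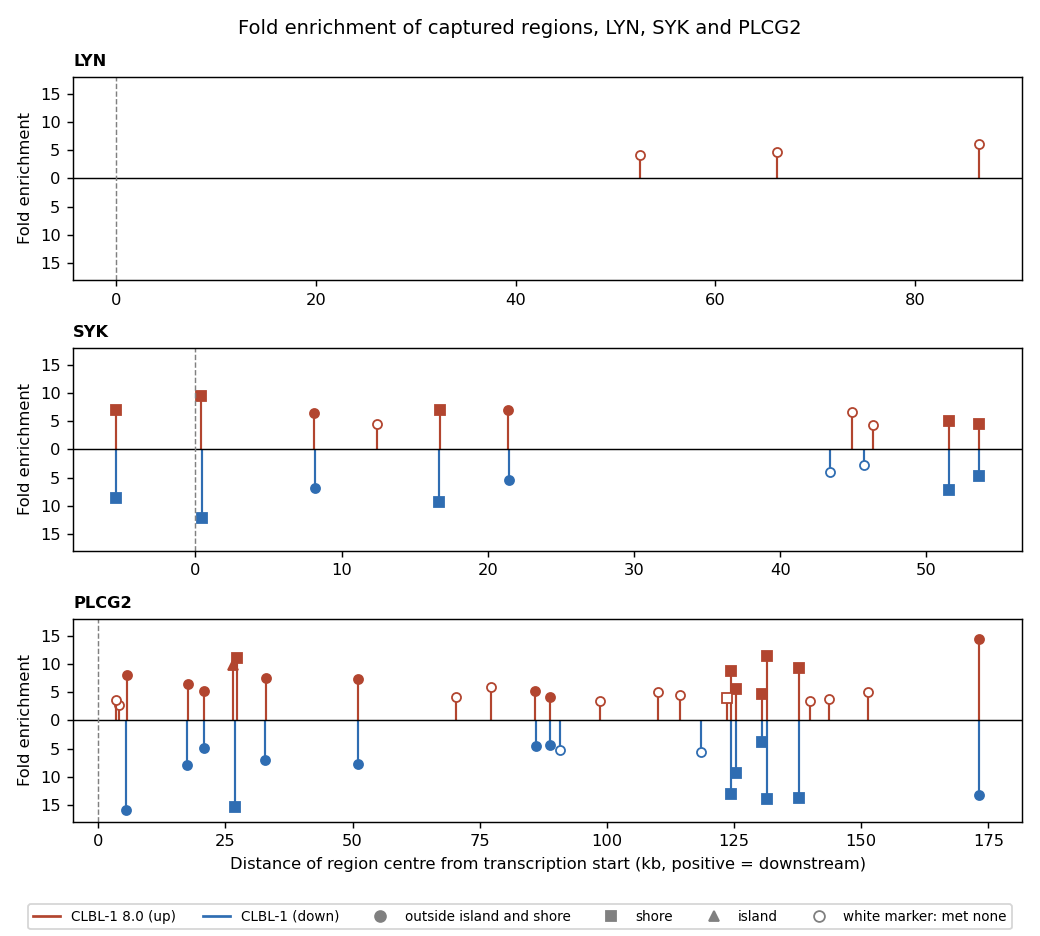
Fold enrichment (linear, authors' values) of regions assigned to LYN, SYK and PLCG2 against the distance of the region centre from the transcription start in kb, with CLBL-1 8.0 drawn upward and CLBL-1 downward. White markers are regions that met none of the other list, among them the 3 LYN regions and 11 CLBL-1 8.0 regions of PLCG2.

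Taking all members together, 18 of 45 CLBL-1 8.0 regions (40.0%, Wilson 95% interval 27.0 to 54.5) met no CLBL-1 region, where the whole list had 38.4%, and 4 of 31 CLBL-1 regions (12.9%, 5.13 to 28.9) met no CLBL-1 8.0 region, where the whole list had 8.99%. Overlapping regions merged into 49 loci, of which 26 were assigned to a member in both lines, 18 to CLBL-1 8.0 alone and 5 to CLBL-1 alone, the MAG case included. The 18 CLBL-1 8.0 regions that met none had a median fold of 4.38 and a median length of 316 bp, and all but 1 lay outside islands and shores. The 27 that met a CLBL-1 region had a median fold of 6.51 and a median length of 536 bp. The same division held over the whole CLBL-1 8.0 list, with medians of 4.75 and 314 bp for regions that met none and 5.41 and 568 bp for the others. Of the regions in that list that met none, 88.7% lay outside islands and shores.

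Regions of these genes were placed in islands or shores in 33.3% of cases in CLBL-1 8.0 (21.4 to 47.9) and 41.9% in CLBL-1 (26.4 to 59.2), and both intervals overlap. Among all regions with a gene the shares were 38.7% and 55.4%. Introns held 71.1% of the member regions in CLBL-1 8.0 and 71.0% in CLBL-1, against 59.6% and 54.1% of all regions with a gene. PLCG2 supplied most of these, and without it the intronic shares were 52.6% and 40.0%.

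Between the lists, 25 member regions matched one to one. The lower fold stood in CLBL-1 8.0 in 18 of the 25, against 77.4% of 71548 such pairs over the genome, and the median log2 ratio of CLBL-1 8.0 over CLBL-1 was -0.27 in the members and -0.27 over all pairs. The lists have no known common scale, so the ratios describe the tables and not a change in methylation. At island shores 11 of 12 member pairs had the lower fold in CLBL-1 8.0, with a median log2 ratio of -0.48, and over all shore pairs the share was 86.2% and the median -0.32. Outside islands and shores it was 7 of 13 member pairs with a median of -0.06, and over all such pairs 70.5% with a median of -0.25. The pairs with the lowest ratios were the shared PLCG2 region nearest the start (-0.98) and the CD79B intron (-0.94). The highest was the SYK region of changed class (0.39).

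**Figure D4:**
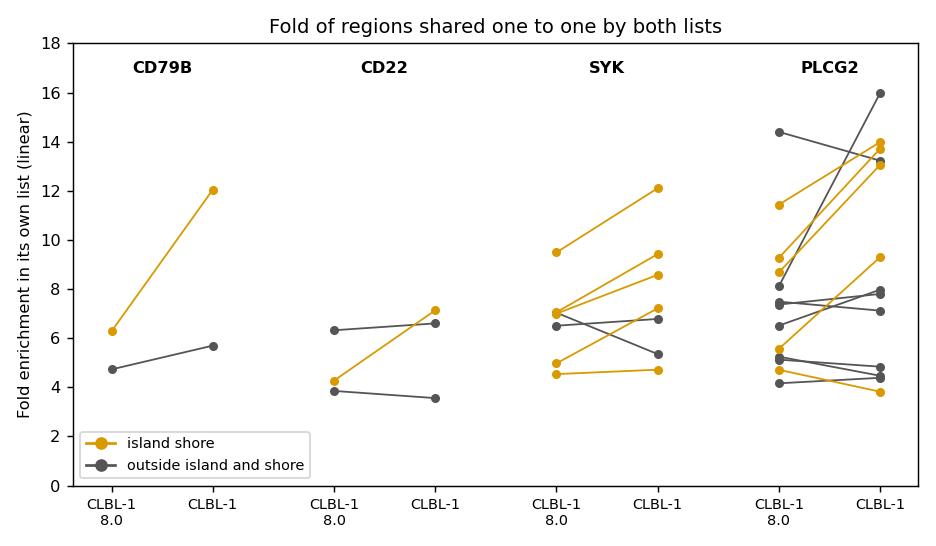
Fold enrichment in its own list of the 25 regions shared one to one, with CLBL-1 8.0 on the left and CLBL-1 on the right of each line, by gene and CpG class. Shore regions have the lower value in CLBL-1 8.0 in 11 of 12 pairs, and the shared PLCG2 region nearest the start has 8.12 and 16.0.

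Beyond the 8 genes, 46 further genes of the pathway were counted by role. A region was listed for 43 of them. Of these, 39 had more in CLBL-1 8.0, 4 had fewer and none had equal numbers, and 30 had at least 1.5 times as many. The backgrounds given above, 60.1% and 51.6%, include many genes with a single region and are not matched for region number. The fold limits applied to the members were not applied to these genes. The median number of regions over the 46 was 4.5 in CLBL-1 8.0, against 1.5 in CLBL-1. Of the 377 CLBL-1 8.0 regions, 169 (44.8%, 39.9 to 49.9) met no CLBL-1 region, where the whole list had 38.4% and regions with a gene 39.6%. ITPR2 alone held 20 of the 169. The interval covers counting error only, and neighbouring regions are not independent, so no excess for the pathway is read from this share. Of the 230 CLBL-1 regions, 10.0% (6.76 to 14.6) met none, where the whole list had 8.99%. Promoter regions were found at 13 of the 46 genes in CLBL-1 8.0 (background 35.7%) and at 15 in CLBL-1 (background 28.8%).

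Among co-receptor genes, CD81 had 3 regions in CLBL-1 8.0, against 2 in CLBL-1. CR2 was named in neither list, and its symbol was not among the RefSeq protein-coding names. A lack of regions at CR2 therefore cannot be told apart from a different gene name. Of the 6 kinase genes 5 had more regions in CLBL-1 8.0, led by FYN, a SRC family kinase, with 42 and 32, and BTK, the kinase that acts on PLCG2, was named in neither list. Of the 11 adaptors and exchange factors 10 had more, and GRB2, which links receptors to RAS activation, had 10 and 1. VAV2, a guanine nucleotide exchange factor, was the exception with 24 and 29. Of the 9 inhibitors 8 had more, with 11 and 1 in CBL, a ubiquitin ligase, and FCGR2B was named in neither list. Of the 17 genes downstream of PLCG2 15 had more, with 21 and 1 in ITPR2 and 15 and 5 in ITPR1, both receptors for inositol trisphosphate that release calcium. NFATC1, a calcium-dependent transcription factor, had 25 and 27. Over all listed genes, many of them with a single region, 60.1% had more in CLBL-1 8.0.

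The surroundings of the 5 genes with the largest differences varied, where the whole lists held 123421 regions in CLBL-1 8.0 and 82247 in CLBL-1. Within 500 kb of the start of ITPR2, leaving out its own regions, 24 were listed in CLBL-1 8.0 and 3 in CLBL-1, and its chromosome, 27, had a ratio of 2.14. Around CBL the numbers were 134 and 70, a ratio of 1.91 against 1.46 for chromosome 5. Around ITPR1 they were 22 and 12, a ratio of 1.83 against 1.43 for chromosome 20. Around GRB2 they were 135 and 83, a ratio of 1.63 against 1.47 for chromosome 9. The surroundings of ITPR2 (ratio 8), CBL, ITPR1 and GRB2 lay above the ratio of their chromosome. Around FYN the numbers were 83 and 73, and this ratio of 1.14 lay below the 1.90 of chromosome 12. What part the surroundings have in the count of each gene was not tested.

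Some of the 46 genes had a promoter region in 1 line only. SOS1, a RAS exchange factor, had one in CLBL-1 8.0 (fold 3.49) and VAV2 had one in CLBL-1 (fold 2.65), and neither met a region of the other list. The CLBL-1 region of PPP3CA, the catalytic subunit of calcineurin, had a fold of 14.9 and met a CLBL-1 8.0 region of fold 10.5 that was assigned to another gene, so the numbers for PPP3CA, 0 and 1, rest on the naming of that region.

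**Figure D5:**
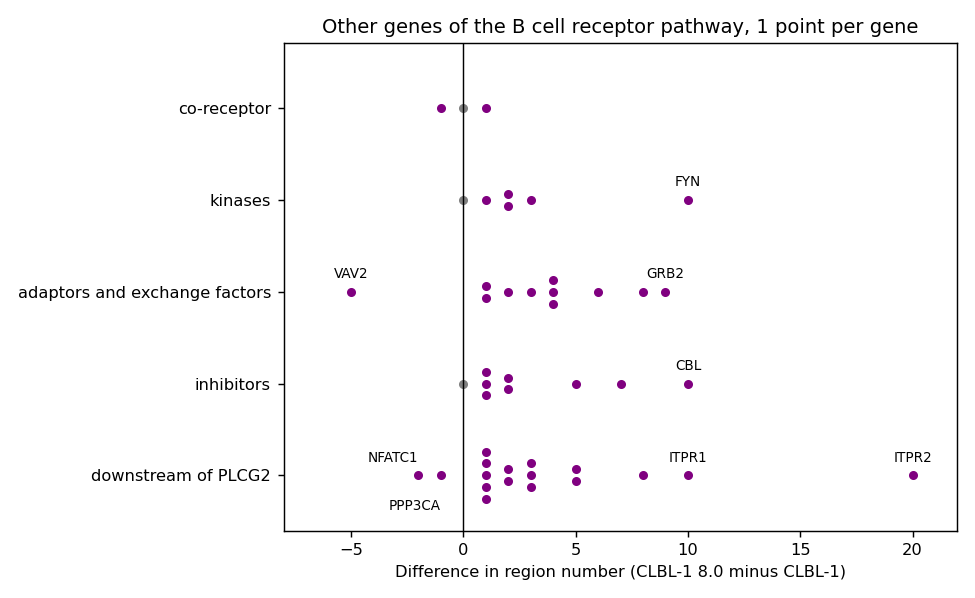
Difference in the number of captured regions, CLBL-1 8.0 minus CLBL-1, for 46 other genes of the B cell receptor pathway grouped by role, with 1 point per gene and grey points for genes named in neither list. ITPR2 stands at 20 and VAV2 at -5.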

How the data were processed

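Genomic DNA of both lines was captured with the MethylCap kit and read from both ends on a NovaSeq, per the labels' protocols. BWA, MACS2 and CanFam3.1 are named in the submitters' processing notes without roles or settings. The fold enrichment is a linear ratio deposited by the authors for each region, per the file headers, over a background not given in the sources used here. Whether both eluates were pooled, the read depth, and whether positions count from 0 or 1 are likewise not given. The signed distance to the transcription start is another deposited value.

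Member rows were taken by the deposited gene column, leaving 6 and 2 rows with displaced cells without a gene. Regions were called shared at 1 bp in common, and the code was tested on simulated data. Transcription starts were computed from region start, distance and strand. Regions flagged as both island and shore were counted as island. Computations used Python 3.11.15, pandas 2.3.3, numpy 2.4.6, scipy 1.17.1, statsmodels 0.14.6 (Wilson intervals) and matplotlib 3.10.9. All 8 members and 45 of the 46 other genes, all but CR2, matched a RefSeq symbol. The members, the pathway list and the alternatives were chosen with earlier results of these data known. Pathway genes named are the 5 with the largest gain, those with a loss, those with a promoter region in 1 line only, and, named after their values were seen, CD81, CR2, BTK and FCGR2B. Some genes under this rule are counted but not reported here by name. The eluates could not be compared, since no values per library were used.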

Additional observations from a re-analysis of the deposited data

How the results depend on the processing

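The numbers of regions depend on the fold limit. Above the pooled median fold of 5.28, the lists held 55627 regions in CLBL-1 8.0 and 47206 in CLBL-1, and members had 21 and 22 of them, so the ratio of 1.45 turned to 0.955. Under that limit 2 members had more regions in CLBL-1 8.0, 1 had at least 1.5 times as many, 1 had a promoter region there, and 85.7% of the member regions of CLBL-1 8.0 met one of the other list. With lists of equal length, which brings the ratio of the whole lists to 1 by construction, members had 35 and 31 regions (ratio 1.13), and PLCG2 no longer had at least 1.5 times as many. Counting only regions that start within 1000 bp of the transcription start, 1 member, SYK, had a promoter region in either line. Without PLCG2, members had 19 regions in CLBL-1 8.0 and 15 in CLBL-1. That alternative and the merging into loci were chosen after seeing the data. In all, 42 of 52 alternative values stayed within their interval or within 1.5 times the reported number, among them covered bases (ratio 1.23), positions within each span (1.52), both other overlap rules, and each member left out in turn (3 to 4 genes with more regions). Some of the 42 could not have moved, so their number does not measure how firm the results are. Leaving out 1 member can only give 3 or 4 genes, and the equal-length cut keeps every CLBL-1 region. Covered bases were run for the ratio and the counts of genes only. No paired analysis was possible because no result comes from a test and each line has 1 list. Depth is unknown, so the lack of a region sets no limit on methylation.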
